A study of Mus musculus with 7 samples.

Results

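Metallothioneins and antioxidant response genes were followed in RNA sequencing libraries of mouse eye tissue that was wildtype, heterozygous or knockout for Agbl5. The set held 10 genes, taken by symbol from the 54532 genes of the deposited table: Mt1, Mt2, Mt3, Hmox1, Nqo1, Gclc, Gclm, Txnrd1, Srxn1 and Cp. All 10 were found, and 9 passed the filter on low values that decided which genes were tested, a mean of at least 1 FPKM over all libraries (FPKM, fragments scaled to exon length and library size, is a level per length). Mt2 did not pass. Agbl5 encodes CCP5, an enzyme that trims glutamate chains from tubulin, and the series asked what its loss does to photoreceptors.

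There were 2 wildtype, 2 heterozygous and 3 Agbl5 knockout libraries, and the wildtype and heterozygous libraries also serve jointly as 4 controls. The tissue was labelled eyeball, while the extraction protocol spoke of retina. Polyadenylated RNA was sequenced with a kit that does not mark the strand. The strain, the age and sex of the mice, the knockout allele and the number of animals behind a library were not given in the sources used here, so p-values measure the spread between these libraries, which may be technical. Whole reads recovered from the FPKM summed to between 12244707 and 14339701 per library. Agbl5 itself, the check of the labels, stood at 9.89 and 8.57 FPKM in wildtype 1 and 2, at 4.21 and 5.34 in heterozygous 1 and 2, and at 1.53, 1.73 and 1.26 in knockout 1, 2 and 3. It fell in knockout against wildtype by 2.03 on the log2 scale (limma, adjusted p = 0.00406). Lens genes set heterozygous 1 and knockout 1 apart: the summed FPKM of 6 lens markers was 2682 and 4355 there and 2.48 to 26.0 in the other 5 libraries. Values without these 2 lens-rich libraries are given for differences of Mt1, Mt3, Gclc and Gclm, and at the end wherever a sign changed. For other differences they are not given, although some of these moved as well. Rod markers were abundant in every library, with a sum over 6 genes of 7938 to 9063 FPKM in controls and 7220 to 7331 FPKM in knockout libraries. In bulk tissue, fewer cells of a type and less RNA per cell cannot be told apart.

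Metallothioneins are small proteins rich in cysteine whose thiols bind zinc and copper and react with oxidants. The zinc-sensing transcription factor MTF1 induces Mt1 and Mt2, whereas Mt3 is a form of nervous tissue. NRF2, the product of Nfe2l2, is held down by KEAP1 in resting cells and, when oxidants or electrophiles modify KEAP1, switches on genes of haem breakdown, quinone reduction, glutathione synthesis and the thioredoxin system. Ceruloplasmin, the product of Cp, oxidises iron with the help of bound copper and in the retina is known from Mueller glia. Photoreceptors consume much oxygen and hold easily oxidised lipids, and expression of these genes is a common readout of retinal stress.

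The 3 metallothionein genes lie in 1 cluster on the plus strand of chromosome 8 (GRCm38, GENCODE release M21). Mt3 (ENSMUSG00000031760) runs from 94152607 to 94154146, Mt2 (ENSMUSG00000031762) from 94172664 to 94173568 and Mt1 (ENSMUSG00000031765) from 94179082 to 94180327. Their coding sequences are shown because near-identical copies can share reads, and because the Mt2 value depends on what else is annotated over it. Each is given 5′ to 3′ from the start codon, without the stop codon, with the cysteine codons in capitals.
Mt1: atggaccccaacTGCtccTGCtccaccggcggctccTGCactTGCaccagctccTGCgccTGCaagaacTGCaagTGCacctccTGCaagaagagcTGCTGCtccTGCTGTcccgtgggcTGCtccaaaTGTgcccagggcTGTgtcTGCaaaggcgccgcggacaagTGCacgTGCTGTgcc
Mt2: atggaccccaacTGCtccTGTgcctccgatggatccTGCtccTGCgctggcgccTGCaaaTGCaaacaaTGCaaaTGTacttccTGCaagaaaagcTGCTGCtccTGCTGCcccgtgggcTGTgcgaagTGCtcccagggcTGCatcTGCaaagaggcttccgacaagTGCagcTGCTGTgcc
Mt3: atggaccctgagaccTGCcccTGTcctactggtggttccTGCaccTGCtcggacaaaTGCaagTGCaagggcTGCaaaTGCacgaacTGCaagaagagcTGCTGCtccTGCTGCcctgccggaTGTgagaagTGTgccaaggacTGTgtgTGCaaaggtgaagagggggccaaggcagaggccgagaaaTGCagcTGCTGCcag
Each coding sequence holds 20 cysteine codons, in 61 codons for Mt1 and Mt2 and 68 for Mt3. Mt1 and Mt2 were identical at 145 of 183 bases (79.2%), with a longest identical run of 20 bases. Mt1 and Mt3 were identical at 65.7% of 204 aligned positions, with a longest identical run of 27 bases, and Mt2 and Mt3 at 67.2%, with a run of 20. How reads were divided between the 3 copies during alignment was not given in the sources used here.

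Mt2 was close to absent from the table and could not be tested. It was listed at 0 FPKM in wildtype 1, 0.226 in wildtype 2, 0.482 in heterozygous 1, 0.130 in heterozygous 2, and 0.386, 0.121 and 0.249 in knockout 1, 2 and 3. These values stood for 0 to 4 reads, against 566 to 1069 reads on Mt1, so the order of the libraries carries no information. For wildtype 1, a count of 0 allows up to 3 reads, or 0.349 FPKM. An antisense gene, Gm45774, is annotated over Mt2 on the other strand: it shares 432 of the 588 merged exon bases of Mt2 (73.5%) and 171 of its 183 coding bases (93.4%). Gm45774 was itself listed at between 0 and 0.170 FPKM. Without strand, reads from the shared bases cannot be given to either gene, and read counters can be set to leave such reads out. The setting used was not given in the sources used here, so the Mt2 level in these eyes is uncertain. Whether its listed values measure the level of the transcript was not tested.

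Other genes were looked at by the share of their exons that is annotated to a further gene. Among 21995 protein-coding genes, 50.6% of the 15460 with no shared exon bases had a mean of at least 1 FPKM, and 22.5% were listed at 0 in all 7 libraries. Genes with small overlaps were listed higher: 74.8% of those sharing above 0 to 25% of their exon bases and 64.2% of those sharing above 25 to 50% reached 1 FPKM, and 4.53% and 6.87% were at 0 throughout. Of the 256 genes sharing above 50 to 75%, the class of Mt2, 45.7% reached 1 FPKM and 9.38% were at 0 throughout. Mt2, at a mean of 0.227 FPKM, lay between the lower quartile (0.108) and the median (0.814) of that class. Of the 199 genes sharing above 75% but less than all, 15.6% reached 1 FPKM. Of the 176 genes sharing every exon base, 3 (1.70%) did, and 148 (84.1%) were listed at 0 throughout. Mt2 was 1 of 406 protein-coding genes (1.85%) that shared at least 70% of their exon bases. No other gene of the set was in that position: Gclm shared 4.71% of its exon bases, Cp 1.13%, and the remaining 7 shared none.

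**Figure D1:**
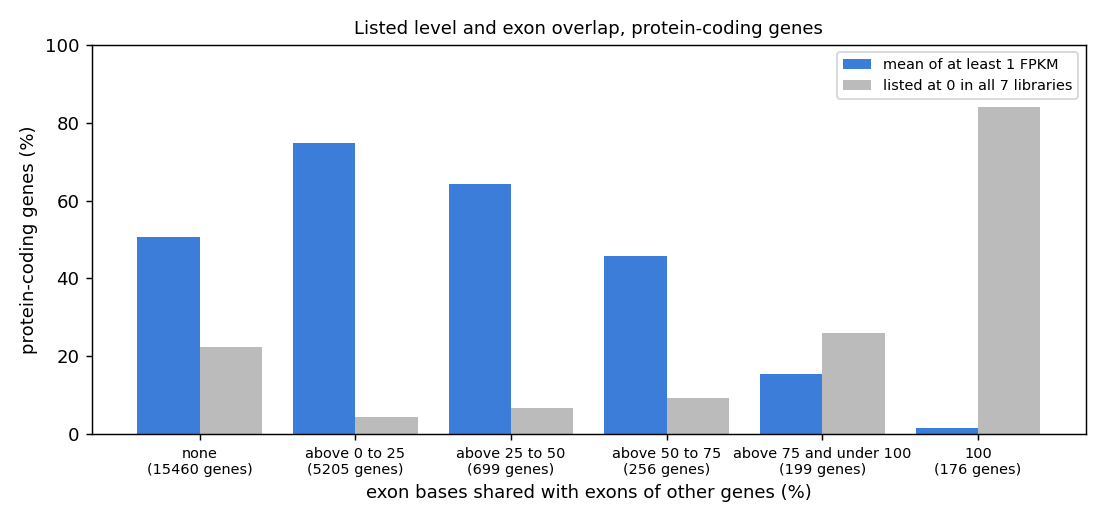
Share of protein-coding genes (y axis, %) with a mean of at least 1 FPKM (blue) and listed at 0 in all 7 libraries (grey), by the share of their merged exon bases that lie in exons of other genes (x axis, %). The blue share is 50.6% with no overlap, 74.8% at the smallest overlaps, 45.7% in the class of Mt2 and 1.70% with full overlap, where the grey share is 22.5%, 4.53%, 9.38% and 84.1%.

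Mt1 was the most abundant of the 9 tested genes and was higher in every knockout library than in every control, without passing the test. Mt1 stood at 31.1 and 38.6 FPKM in wildtype 1 and 2, 38.5 and 36.4 in heterozygous 1 and 2, and 64.9, 42.6 and 62.6 in knockout 1, 2 and 3. Knockout 2 lay close to the controls and the other 2 knockout libraries well above them. The mean was 56.7 ± 12.2 FPKM in knockout (SD, n = 3), 1.63 times the wildtype mean of 34.8 ± 5.32 (n = 2) and 1.51 times the heterozygous mean of 37.5 ± 1.5 (n = 2). On the log2(FPKM + 1) scale the difference from wildtype was 0.67 ± 0.19 (SE), with a 95% interval of 0.22 to 1.13 (limma, adjusted p = 0.466). The difference from heterozygous was 0.56 (limma, adjusted p = 0.354), and from all controls it was 0.62 ± 0.15 (adjusted p = 0.192). Heterozygous and wildtype libraries overlapped, with a difference of 0.11 (limma, adjusted p = 0.980). The result turned on knockout 2: without it the difference from all controls was 0.81 and passed (limma, adjusted p = 0.0362), while over all 13 alternatives run for this comparison the adjusted p ran from 0.0362 to 0.473. Without both lens-rich libraries that difference was 0.54 (adjusted p = 0.473).

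Mt3, the nervous tissue form, showed no comparable separation. It stood at 8.21 and 6.59 FPKM in wildtype, 6.71 and 7.47 in heterozygous, and 11.4, 8.91 and 6.93 in knockout 1, 2 and 3. Knockout 1 and 2 were above every control, while knockout 3 fell within the control range. The difference from wildtype was 0.25 with an interval of -0.21 to 0.70 (limma, adjusted p = 0.833), and from all controls it was 0.27 ± 0.15 (adjusted p = 0.501). These values rested on single libraries: without both lens-rich libraries they were 0.0840 and 0.0776, and leaving out knockout 1 or knockout 3 gave 0.0840 or 0.41 against wildtype. Knockout 3 was thus high for Mt1 and within the controls for Mt3, and knockout 2 was the lowest knockout library for Mt1 but not for Mt3.

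Cp had the smallest SE of the 9 tested genes. Its levels went from wildtype to heterozygous to knockout with no overlap between any 2 genotypes. The share of all genes with such an order was not counted. Between heterozygous and wildtype alone, 2 of the 9 tested genes were higher and 1 lower without overlap. For this pair too the share of all genes was not counted, so these numbers are a description only. Cp (ENSMUSG00000003617, chromosome 3, 19957054 to 20009145, plus strand, 22 merged exons) stood at 18.5 and 18.4 FPKM in wildtype, 20.9 and 20.7 in heterozygous, and 25.3, 23.8 and 23.5 in knockout. The knockout mean of 24.2 ± 0.971 FPKM (SD, n = 3) was 1.31 times the wildtype mean and 1.16 times the heterozygous mean. The difference from wildtype was 0.37 ± 0.06, with an interval of 0.23 to 0.51, and did not pass (limma, adjusted p = 0.0958). It was 0.21 from heterozygous (limma, adjusted p = 0.299) and 0.29 from all controls (adjusted p = 0.147). Heterozygous was above wildtype by 0.16 (limma, adjusted p = 0.974). With limma voom on the recovered reads, 2588 to 3211 per library, the difference from wildtype was 0.39 and passed (adjusted p = 0.0346). With each library rescaled to the same sum it was 0.22 (limma, adjusted p = 0.438), against a median over all genes of -0.16 on that scale.

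**Figure D2:**
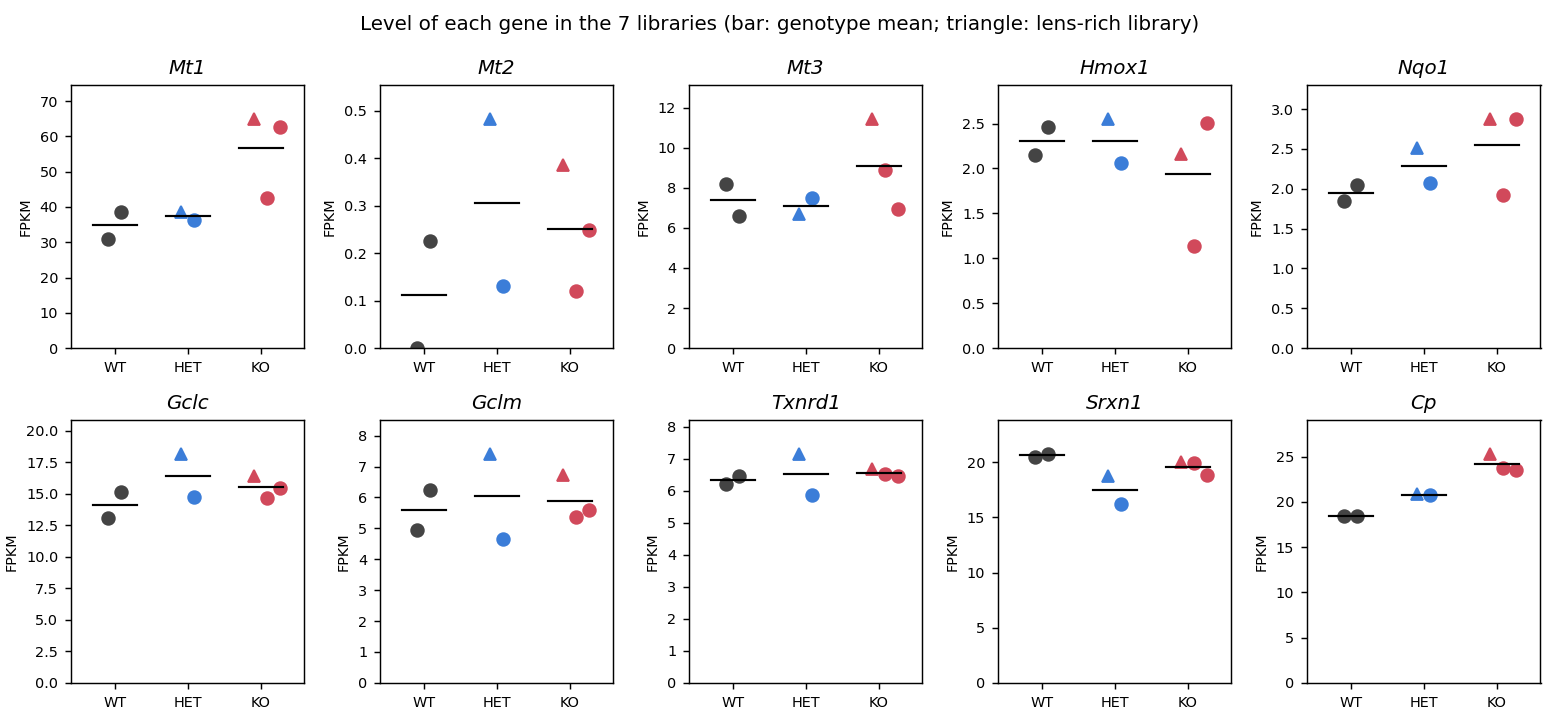
FPKM of the 10 genes in wildtype (WT), heterozygous (HET) and knockout (KO) libraries, 1 panel per gene with its own y axis from 0. Points are libraries, triangles the lens-rich libraries (heterozygous 1 and knockout 1) and bars genotype means. The 3 knockout points lie above all controls in the panels of Mt1 (42.6 to 64.9 against 31.1 to 38.6) and Cp (23.5 to 25.3 against 18.4 to 20.9).

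Hmox1 and Nqo1, the NRF2 targets of haem and quinone handling, were the lowest of the tested genes and did not differ past the threshold. Hmox1 (ENSMUSG00000005413), the inducible haem oxygenase, stood at 2.15 and 2.46 FPKM in wildtype, 2.55 and 2.06 in heterozygous, and 2.16, 1.13 and 2.51 in knockout 1, 2 and 3. The low value of knockout 2 rested on 28 reads, against 47 to 65 in the other libraries, and the other 2 knockout values lay within the control range. The difference of knockout from wildtype was -0.20, with an interval of -0.73 to 0.33 (limma, adjusted p = 0.875), and without knockout 2 it was 0.01. Nqo1 (ENSMUSG00000003849), a quinone reductase, stood at 1.85 and 2.05 FPKM in wildtype, 2.51 and 2.07 in heterozygous, and 2.87, 1.92 and 2.87 in knockout 1, 2 and 3. As for Mt1, knockout 1 and 3 were the highest 2 libraries and knockout 2 was not. The difference from wildtype was 0.26, with an interval of -0.12 to 0.63 (limma, adjusted p = 0.787), on 42 to 61 reads per library.

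Gclc and Gclm encode the catalytic and the modifier subunit of glutamate-cysteine ligase, which makes the first intermediate of glutathione. Gclc (ENSMUSG00000032350) stood at 13.1 and 15.1 FPKM in wildtype, 18.2 and 14.7 in heterozygous, and 16.4, 14.7 and 15.5 in knockout. Gclm (ENSMUSG00000028124) stood at 4.93 and 6.25 FPKM in wildtype, 7.41 and 4.66 in heterozygous, and 6.72, 5.36 and 5.6 in knockout. For both subunits the highest 2 libraries were heterozygous 1 and knockout 1, the lens-rich ones, and the part of lens tissue in these levels was not tested. Knockout differed from wildtype by 0.13 for Gclc (interval -0.13 to 0.39, limma, adjusted p = 0.845) and by 0.07 for Gclm (-0.38 to 0.52, adjusted p = 0.960). Without both lens-rich libraries the difference was 0.0910 for Gclc and -0.02 for Gclm. As folds of FPKM + 1, the intervals ran from 0.914 to 1.31 for Gclc and from 0.767 to 1.43 for Gclm.

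Txnrd1 and Srxn1 belong to the thioredoxin system: the first encodes thioredoxin reductase, and the second sulfiredoxin, which repairs overoxidised peroxiredoxins. Txnrd1 (ENSMUSG00000020250) stood at 6.21 and 6.47 FPKM in wildtype, 7.14 and 5.87 in heterozygous, and 6.69, 6.53 and 6.46 in knockout. This was the narrowest knockout range of the set relative to its level. Like Gclc and Gclm, Txnrd1 was highest in heterozygous 1 and knockout 1, the lens-rich libraries. Its difference from wildtype was 0.04, and as a fold of FPKM + 1 the interval was 0.890 to 1.19 (limma, adjusted p = 0.938). Srxn1 (ENSMUSG00000032802) stood at 20.5 and 20.7 FPKM in wildtype, 18.7 and 16.2 in heterozygous, and 19.997, 19.957 and 18.8 in knockout. It was the only tested gene of the set whose knockout libraries all lay below both wildtype libraries, by -0.07 (limma, adjusted p = 0.872). They all lay above both heterozygous libraries, by 0.16 (adjusted p = 0.449). How many of all genes lay below wildtype or above heterozygous in this way was not counted. Heterozygous was below wildtype by -0.23, with an interval of -0.43 to -0.03 (limma, adjusted p = 0.974). Over the 14 alternatives this last difference ran from -0.33 to -0.13.

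None of the 9 tested genes passed in knockout against wildtype, where limma called 0.323% of all 15472 genes tested, and voom called 1, Cp. Without adjustment 2 of 9 (Mt1 and Cp) had a p under 0.05, against 7.5% of all genes. Every knockout library was above both wildtype libraries for the same 2 genes, against 13.5% of all genes. Whether 2 of 9 exceeds these shares was not tested. In knockout against heterozygous limma and voom called 0 of 9 (all genes, 0.317% by limma), with Mt1 and Cp again at an unadjusted p under 0.05 (all genes, 12%). Against all controls both tools called 0 of 9 (all genes, 0.614% by limma). Mt1 and Cp had an unadjusted p under 0.05 (all genes, 12.2%) and every knockout library above every control (all genes, 6.75%). In heterozygous against wildtype both tools called 0 of 9, as limma called 0% of all genes, with Cp and Srxn1 at an unadjusted p under 0.05 (all genes, 4%). The median difference over the 9 genes was 0.13 in knockout against wildtype and 0.04 against all controls, where the median over all genes was 0.00. The comparisons with knockout share the knockout libraries and in part the controls, so their likeness is no repeat of the result.

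**Figure D3:**
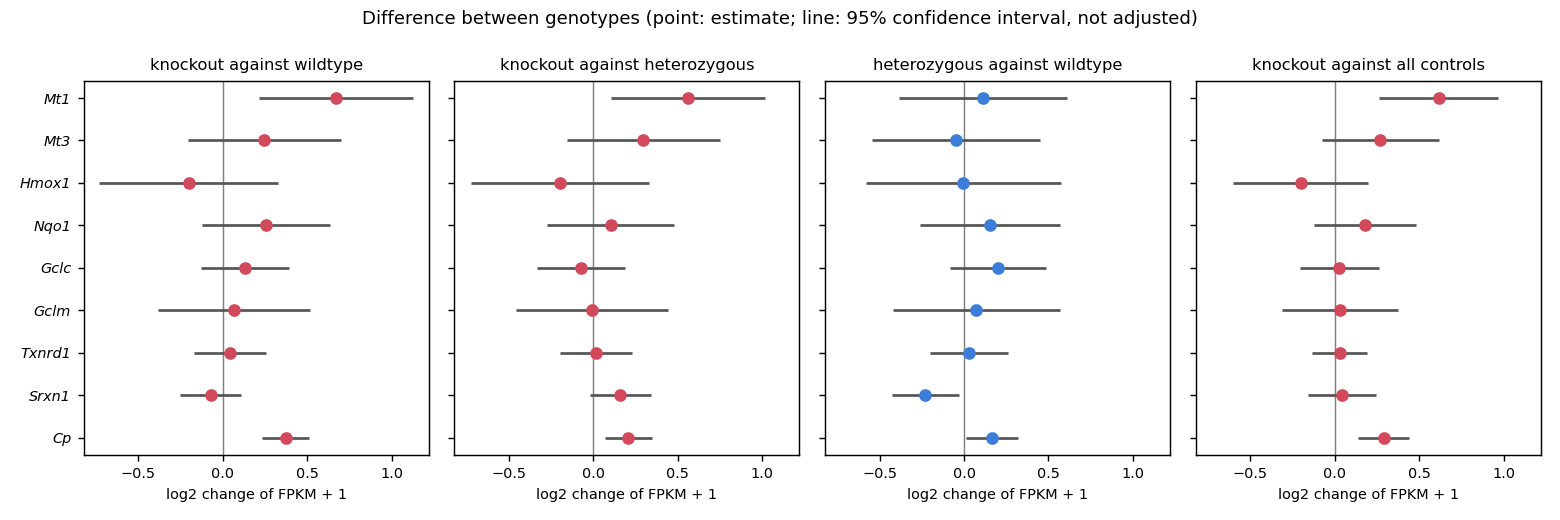
Differences between genotypes on the log2(FPKM + 1) scale (x axis) for the 9 tested genes (rows), 1 panel per comparison, with points for the limma estimate and lines for its unadjusted 95% interval. Only Mt1 and Cp have intervals above 0 in the 3 comparisons with knockout, from 0.22 to 1.13 and from 0.23 to 0.51 against wildtype.

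In order of mean level over the 7 libraries, Mt1 (44.9 FPKM) was followed by Cp (21.6), Srxn1 (19.3), Gclc (15.4), Mt3 (8.03), Txnrd1 (6.48), Gclm (5.85), Nqo1 (2.31) and Hmox1 (2.14). Mt2, listed at a mean of 0.227, is left out of this order, since its listed values are uncertain. Neighbours whose ranges over the libraries overlapped were Cp and Srxn1, Srxn1 and Gclc, Mt3 and Txnrd1, Txnrd1 and Gclm, and Nqo1 and Hmox1. The levels are per merged exon length, which for Mt1 is 1246 bases in 1 merged exon and for Cp 9566 bases, so a level per expressed transcript would be higher for genes whose merged model is longer than their transcripts.

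The rest of the same pathways was read from 5 lists of further genes. Of their 112 genes 111 were in the table and 95 were tested, and limma and voom called 0 of 95 in each of the 4 comparisons. In knockout against wildtype 3 of 95 (3.16%) had an unadjusted p under 0.05, and against all controls 8 of 95 (8.42%), below the 7.5% and 12.2% of all genes. The medians in knockout against wildtype were 0.06 for 9 tested NRF2 pathway regulators, 0.08 for 21 other NRF2 targets, 0.03 for 29 other antioxidant enzymes, 0.02 for 15 zinc handling genes and 0.01 for 23 iron and copper handling genes. The gene with the smallest p of each list did not pass. Nfe2l2, which encodes NRF2, stood at 7.69 and 8.07 FPKM in wildtype, 8.56 and 8.98 in heterozygous, and 8.26, 9.69 and 9.11 in knockout, a difference from wildtype of 0.17 (limma, adjusted p = 0.733). Its inhibitor Keap1 and the metal sensor Mtf1, named here for their role and outside the naming rule, differed from wildtype by 0.08 (limma, adjusted p = 0.819) and -0.12 (adjusted p = 0.845). For Gsr, glutathione reductase, the difference was 0.13 (limma, adjusted p = 0.780), and for Sod3, the extracellular superoxide dismutase, it was 0.53 (adjusted p = 0.654). Slc39a1, a zinc importer, stood at 12.3 and 10.9 FPKM in wildtype, 14.3 and 14.4 in heterozygous, and 18.5, 13.7 and 16.1 in knockout. Its difference from wildtype was 0.43 (limma, adjusted p = 0.462). Steap2, a metalloreductase, was lower in every knockout library (6.46 to 6.70 FPKM) than in every control (7.29 to 8.73 FPKM). The difference was -0.18 against wildtype (limma, adjusted p = 0.625) and -0.25 against all controls (adjusted p = 0.218). The share of all genes lower in this way was not counted. In the opposite direction, 6.75% of all genes were higher in every knockout library than in every control.

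The libraries in which Mt1 was high were also those in which Rdh5 and Slc16a8, known from the pigment epithelium behind the photoreceptors, were high. The 3 tested genes whose log2 levels were most correlated with Mt1 over the 7 libraries were Rdh5 (Pearson r = 0.986), Slc16a8 (0.980) and Slc6a20a (0.980). Rdh5, a retinol dehydrogenase of the visual cycle, stood at 3.85 and 5.00 FPKM in wildtype, 5.02 and 4.72 in heterozygous, and 9.23, 4.87 and 8.90 in knockout 1, 2 and 3. Knockout 2 thus lay within the control range for Rdh5. For Mt1 it lay close to the controls but above each, at 42.6 FPKM against at most 38.6. Slc16a8 encodes a lactate transporter of the pigment epithelium. It stood at 3.09 to 4.76 FPKM in controls and at 8.07, 5.67 and 7.84 FPKM in knockout 1, 2 and 3. The 6 pigment epithelium markers of a separate list, of which limma and voom called 0 of 5 tested, summed to 33.8 and 115 FPKM in wildtype, 167 and 89.2 in heterozygous, and 201, 66.8 and 121 in knockout. The markers of this list, named here after their values were seen, did not share 1 pattern. Ttr, Rpe65 and Lrat, of retinol transport and the visual cycle, were highest in knockout 1 and 3, as Mt1 was, and had an unadjusted p under 0.05 against all controls. Ttr stood at 21.4 and 38.6 FPKM in wildtype, 45.2 and 34.8 in heterozygous, and 86.6, 50.8 and 77.2 in knockout, with no overlap between knockout and controls. Rpe65 stood at 3.75 to 8.19 FPKM in controls and at 12.8, 7.88 and 12.9 in knockout 1, 2 and 3. The melanin genes Pmel and Tyrp1 took a large part of the sum and were highest in heterozygous 1, at 73.9 and 39.6 FPKM, and lowest in knockout 2, at 3.62 and 2.28. Best1, below the filter at a mean of 0.428 FPKM, did not follow Mt1 either. It stood at 0.667, 0.659 and 0.340 FPKM in knockout 1, 2 and 3 and at 0.127 to 0.498 in controls. The part of this tissue in the Mt1 level was not tested.

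Among the genes closest to Cp in pattern were Serpina3n (Pearson r = 0.984 over the 7 libraries) and A2m (0.982), which encodes a protease-binding plasma protein. Serpina3n, a protease inhibitor of reactive astrocytes, went from 1.72 and 2.73 FPKM in wildtype through 5.11 and 4.64 in heterozygous to 21.2, 16.9 and 16.1 in knockout, and rose against wildtype by 2.57 on the log2 scale (limma, adjusted p = 0.00406). A2m stood at 1.00 and 1.13 FPKM in wildtype, 2.38 and 1.79 in heterozygous, and 7.76, 5.90 and 6.43 in knockout. Both thus went through the genotypes in the order seen for Cp, with wider ratios between knockout and wildtype. The 6 reactive glia markers summed to 42.3 and 45.8 FPKM in wildtype, 92.6 and 48.3 in heterozygous, and 136, 99.7 and 83.0 in knockout. Vim took a large part of this sum and was highest in the lens-rich libraries. It stood at 73.9 FPKM in heterozygous 1 and 80.7 in knockout 1, against 30.9 to 46.2 elsewhere. Of these 6, Serpina3n and Cebpd, an inflammatory transcription factor, passed against wildtype, and Gfap, the glial filament protein, also passed against all controls. Osmr, Vim and Lcn2 did not pass against all controls (limma, adjusted p = 0.0504, 0.664 and 0.755). The 6 markers of Mueller glia in general summed to 1204 to 1367 FPKM in controls and 1271 to 1386 in knockout. This sum held opposite moves. Apoe stood at 222 to 305 FPKM in controls and 323 to 394 in knockout. Glul stood at 559 to 667 FPKM in controls and 556 to 562 in knockout. By limma and voom 0 of the 6 passed against wildtype or all controls. Microglia markers, also 6, summed to 8.64 to 10.6 FPKM in controls and 17.9 to 20.7 in knockout. The part of reactive glia or microglia in the Cp level was not tested.

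**Figure D4:**
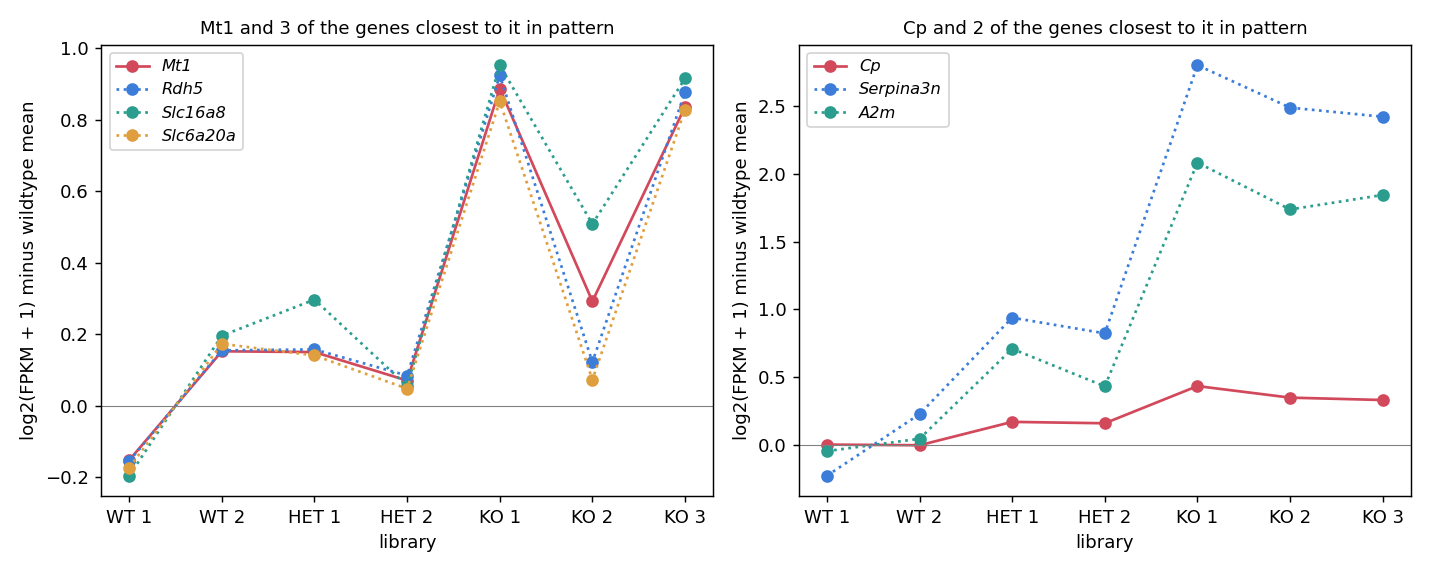
Level in each of the 7 libraries (x axis) on the log2(FPKM + 1) scale relative to the wildtype mean (y axis), for Mt1 with its 3 closest genes (left) and Cp with 2 of its closest genes (right). Lines only join the points of 1 gene. Mt1, Rdh5 and Slc6a20a drop back towards the controls in knockout 2, where Mt1 was at 42.6 FPKM, while Cp does not (23.8 FPKM).

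The remaining closest genes were of mixed kind. For Mt3 they were the ribosomal protein gene Rps2 (r = 0.969), Pdlim7 (0.965) and Pias4 (0.963). For Hmox1 they were AA986860 (0.962), Mcm5 (0.958), a replication helicase gene that begins 8979 bases after the end of Hmox1, and Atp9b (0.956). For Mt2, whose values rest on 0 to 4 reads, they were Itgav (0.994), Prdx4 (0.994) and Tor3a (0.987). Between genes of the set, Mt1 correlated at 0.862 with Nqo1 and at 0.836 with Cp, and at 0.417 with Mt3. With 7 libraries that share 3 genotypes, and 12561 candidate genes per search, coefficients of this size are a description of these libraries. No p is attached to them.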

How the data were processed

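The authors deposited FPKM for 54532 genes in 1 column per library. Per the submitters' processing notes, TopHat2 2.0.9, Bowtie2 2.0.6, HTSeq and DESeq were used with builds mm10 and GRCm38. Counting settings and annotation release were not given in the sources used here. GENCODE M21 held 54495 of the identifiers and gave exon lengths. With these, 96.8% of values above 0 were whole multiples of 1 read within 0.01, and 1 read on 1 kilobase was worth 0.0663 to 0.0766 FPKM.

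The 15472 genes averaging 1 FPKM or more were tested as log2(FPKM + 1) with limma 3.58.1 (R 4.3.3; trend; Benjamini-Hochberg adjustment over all genes tested, threshold 0.05), which understates folds of low genes. A fit of 3 genotypes had 4 residual degrees of freedom, and knockout against all controls 5. The script was tested on simulated data. Bounds from counts of 0 cover counting error only.

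The genes, lists and rules were chosen with earlier results of these data known. Named were all 10 genes, called list members or otherwise the smallest p, at most 6 per list, and for 5 genes the 3 closest by Pearson correlation, leaving out predicted genes. Of these, 1 gene is not reported here. There were 14 alternatives: another pseudocount (0.1), no filter, a TPM scale, voom on recovered reads, a replicate block, only the groups compared, each library left out in turn, and both lens-rich libraries left out. Lists of vascular and red blood cell markers had 0 called members by limma and voom.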

Additional observations from a re-analysis of the deposited data

How the results depend on the processing

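With limma 0 genes of the set passed in each of the 4 comparisons, and this held with 2 exceptions under the alternatives run, 13 for knockout against all controls, which uses all libraries, and 14 for each other comparison. With voom on recovered reads 1 passed in knockout against wildtype (Cp, 0.39). Without knockout 2, 1 passed in knockout against all controls (Mt1), so that leaving out 1 library at a time gave 0 to 1. Mt1 ran from 0.52 to 0.86 and Cp from 0.22 to 0.39 against wildtype, and both kept their direction in the comparisons with knockout. Of 495 values over all tested genes of the set, comparisons and alternatives, 41 changed sign, and these are given next. Rescaling each library to 1 sum (the TPM scale) moved the median over all genes to -0.16 in knockout against wildtype and to -0.12 against all controls. In knockout against wildtype it put Gclc at -0.0252, Gclm at -0.0818 and Txnrd1 at -0.11. Against all controls it put Gclc at -0.0932, Gclm at -0.0842, Txnrd1 at -0.0876 and Srxn1 at -0.0768. Txnrd1 was at -0.0651 between knockout and heterozygous and at -0.045 between heterozygous and wildtype. Without both lens-rich libraries Gclm was at -0.0172 in knockout against wildtype, at 0.19 in knockout against heterozygous and at -0.21 for heterozygous minus wildtype. Gclc was at 0.0303 between knockout and heterozygous, and between heterozygous and wildtype Mt3 was at 0.0192 and Txnrd1 at -0.10. The causes were not tested.

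Leaving out 1 library at a time gave these ranges where a sign changed. In knockout against wildtype Hmox1 ran from -0.35 to 0.0117 and Gclm from -0.0778 to 0.21. In knockout against heterozygous Hmox1 ran from -0.34 to 0.0152, Gclc from -0.22 to 0.0688, Gclm from -0.29 to 0.28 and Txnrd1 from -0.11 to 0.14. In heterozygous against wildtype Mt1 ran from -0.042 to 0.26, Mt3 from -0.19 to 0.0899, Hmox1 from -0.11 to 0.10, Gclm from -0.21 to 0.36 and Txnrd1 from -0.10 to 0.15. Against all controls Hmox1 ran from -0.34 to 0.0134, Gclc from -0.0386 to 0.11, Gclm from -0.0537 to 0.14, Txnrd1 from -0.0073 to 0.0744 and Srxn1 from -0.027 to 0.0858.

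What a replicate number stands for was not given in the sources used here. Deviations of libraries with the same number from their genotype means correlated at -0.0234 to 0.43, highest for heterozygous 1 and knockout 1, the lens-rich libraries, so the numbers were not taken to pair the samples. With the replicate number as a block 0 genes of the set passed in each comparison and Gclm was at 0.0223 in knockout against heterozygous. Over all genes the count in knockout against wildtype went from 50 to 3 with the block and to 77 with voom. Among tested genes Hmox1 and Nqo1 had the fewest reads, 28 to 65 per library.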
